A study of Mus musculus with 6 samples.

Results

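Aminoacyl-tRNA synthetases join each amino acid to its transfer RNA, and the mouse nucleus encodes one set for the cytosol and another that is imported into mitochondria. These enzymes were followed in embryonic hearts bred to delete the mitochondrial ribosomal protein gene Mrps5 in cardiomyocytes. Members were taken by symbol from a list of 37 symbols, of which 36 were found among the 26191 genes of the deposited table, 20 for cytosolic and 16 for mitochondrial enzymes. The remaining symbol, Mars1, is another name of the gene listed as Mars. The hearts were of the genotype Mrps5 fl/fl (ctrl, 3 libraries) or Mrps5 fl/fl; cTNT-Cre (cKO, 3 libraries) and were taken from littermate embryos at embryonic day 12. All hearts carry the floxed alleles, and Cre was present in the cKO hearts alone. Several hearts were pooled for each library. Expression of cTNT-Cre follows the cardiac troponin T promoter, and the deletion occurs in cardiomyocytes, so endothelial, epicardial, mesenchymal and blood cells of a cKO heart keep Mrps5.

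A synthetase that serves the cytosol supplies the charged tRNAs for all proteins made there, whereas its mitochondrial counterpart supplies the few proteins encoded by mitochondrial DNA. Synthetases fall into class I and class II, which differ in the fold of the catalytic domain, and several cytosolic enzymes sit together on scaffold proteins in the multisynthetase complex. Many cytosolic synthetase genes are known targets of ATF4, the transcription factor whose mRNA is preferentially translated when eIF2alpha is phosphorylated under amino acid shortage or mitochondrial stress.

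Levels are given as FPKM, fragment numbers corrected for transcript length and library size, summed over the transcript rows of a gene. FPKM values hold no read numbers, so the depth of the libraries is unknown and no counting error can be given. Fold changes are differences of log2(FPKM + 1), cKO minus ctrl, with a standard error from limma, a scale on which changes of weakly expressed genes come out too small. Of the 26191 genes, 13260 had at least 1 FPKM in at least 3 of the 6 libraries and were tested, and all 36 synthetase genes were among them.

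The deleted gene and the cell type markers set limits on these libraries. Mrps5 was at 9.65, 11.4 and 10.4 FPKM in ctrl 1 to 3, at 5.28 and 7.41 in cKO 1 and 2, and at 10.4 in the library labelled cKO 3, which therefore lay at the control level. The sum over transcripts cannot tell recombined from intact Mrps5 mRNA. The 9 cardiomyocyte markers were high in all libraries. They summed to between 9072 and 10955 FPKM in ctrl and between 7240 and 8898 in cKO hearts, and 5 of them were lower at an unadjusted p under 0.05, as were 9.43% of all genes tested. One of the 5 was Tnnt2, with a log2 fold change of -0.60. On its most abundant transcript row alone that value was -3.79 and the call was lost (unadjusted p = 0.154 by limma). The 11 erythroid markers that were found summed to between 55647 and 62172 FPKM in ctrl and between 49299 and 121048 in cKO hearts, high in cKO 1 and in the library labelled cKO 3 and lowest of all in cKO 2. The 5 macrophage markers were low, between 6.79 and 11.3 FPKM in sum. In whole hearts, fewer cells of a type and less RNA per cell cannot be told apart.

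Most cytosolic synthetase transcripts were higher in cKO hearts, and the mitochondrial synthetase transcripts showed no such difference. Of the 20 cytosolic genes, 15 were higher at an unadjusted p under 0.05, here called nominally higher, and none was lower, against a background of 5.57% of all genes tested nominally higher and 9.43% nominally lower. None of the 16 mitochondrial genes passed that line in either direction. The log2 fold change of the cytosolic genes had a median of 0.61 and ran from 0.067 to 1.05, positive in 20 of 20, although that of Qars turned to -0.015 when values were scaled to a common total and that of Wars to -0.53 when its most abundant transcript row alone was used. The mitochondrial genes had a median of 0.0098 and a range from -0.21 to 0.14, and this median became -0.069 under the common total and -0.022 when erythroid and mitochondrially encoded genes were left out of the total. Over all genes tested the median was -0.021.

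After Benjamini-Hochberg adjustment over all 13260 genes, asparaginyl-tRNA synthetase Nars was the only member with an adjusted p under 0.05, where 0.0528% of all genes passed that line as higher. This call rests on the processing. The smallest adjusted p of the cytosolic genes was 0.0763 with a replicate block, 0.213 without the filter, 0.195 on the most abundant transcript row, 0.0715 without the variance trend, 0.166 with the erythroid covariate and between 0.0908 and 0.191 without any one ctrl library, and 2 cytosolic genes passed when values were scaled to a common total. The adjusted p of the 15 nominally higher genes ran from 0.0436 to 0.283 in limma. Every cKO library was above every ctrl library in 15 cytosolic genes, 14 of them nominally higher ones and the other Farsa, against 7.74% of all genes. Among mitochondrial genes only Nars2 had its groups apart in that direction and only Ears2 in the opposite one, where 13.0% of all genes have every cKO library below every ctrl library.

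**Figure D1:**
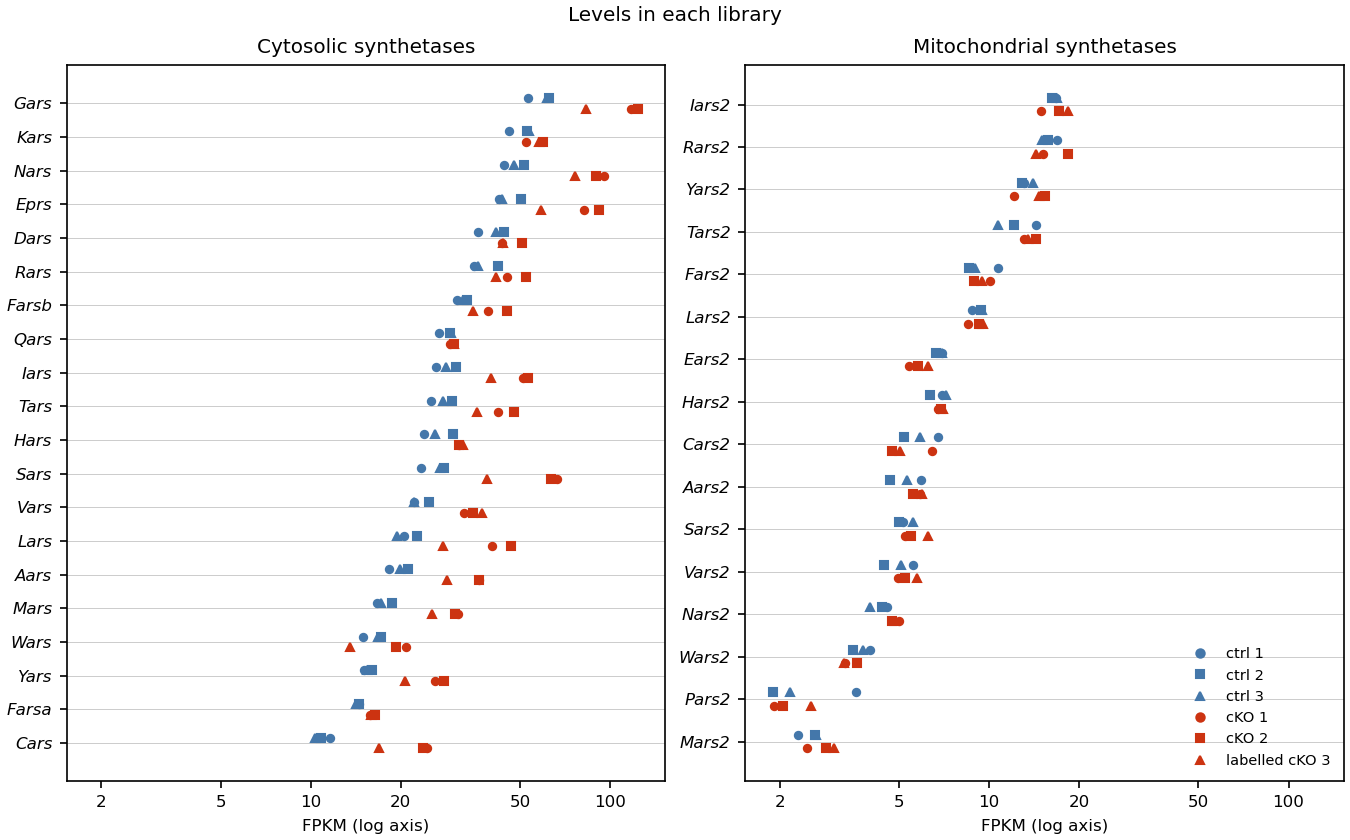
FPKM of the 20 cytosolic (left) and 16 mitochondrial (right) synthetase genes in each library, on a log axis, with genes ordered by their ctrl mean; blue points are ctrl and red points cKO libraries, and the marker shape gives the replicate number. Red points lie to the right of blue ones for most cytosolic genes, with the library labelled cKO 3 (triangle) mostly nearest the controls, and mix with them for most mitochondrial genes.

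**Figure D2:**
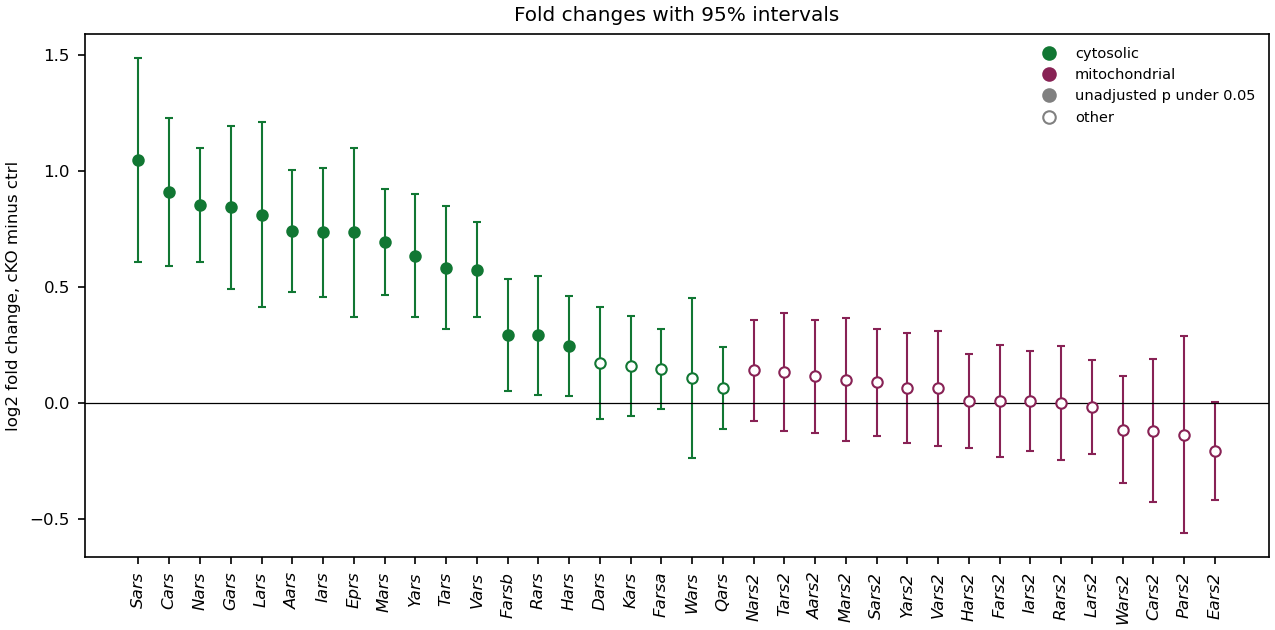
Log2 fold change, cKO minus ctrl, of each synthetase gene with its 95% interval from limma, ordered by size within the cytosolic (green) and mitochondrial (purple) sets. Filled points have an unadjusted p under 0.05, which 15 cytosolic genes and no mitochondrial gene reached.

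The free-standing cytosolic enzymes held the highest fold changes, and 10 of 12 were nominally higher. Sars, which charges the serine tRNAs and also the selenocysteine tRNA, was at 23.3, 27.8 and 26.9 FPKM in ctrl 1 to 3 and at 66.6, 63.3 and 38.7 in cKO 1, cKO 2 and the library labelled cKO 3. Its log2 fold change, 1.05 ± 0.19 (SE) with an adjusted p of 0.0966, was the highest of all members, and its 3 cKO values lay well above the controls. Its mitochondrial counterpart Sars2 was at 5.14, 5.01 and 5.57 FPKM against 5.22, 5.49 and 6.24, a log2 fold change of 0.091. Cars, the cysteine enzyme, was at 11.6, 10.8 and 10.4 FPKM in ctrl and at 24.5, 23.7 and 16.9 in cKO hearts. Its level was the lowest of the cytosolic set in ctrl hearts and was 1.98 times higher in cKO hearts, with a log2 fold change of 0.91 ± 0.14 (SE) and an adjusted p of 0.0643. Cars2 was at 6.76, 5.18 and 5.86 FPKM against 6.43, 4.72 and 5.05, with overlapping groups.

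Nars charges the tRNA for asparagine, the amino acid made by the ATF4 target Asns. It was at 44.3, 51.5 and 47.7 FPKM in ctrl and at 95.6, 90.0 and 76.4 in cKO hearts, a wide gap in every library. On the log2 scale this was a difference of 0.85 ± 0.11 (SE), with an adjusted p of 0.0436. The mitochondrial enzyme Nars2 was at 4.55, 4.39 and 3.995 FPKM against 4.99, 4.73 and 4.85, a gap without overlap but with a log2 fold change of 0.14 and an adjusted p of 0.521. Gars, the glycine enzyme and the most abundant synthetase transcript in ctrl hearts, was at 53.0, 62.5 and 61.7 FPKM and at 117, 124 and 83.0 in cKO hearts. It was 1.83 times higher, with a log2 fold change of 0.84 ± 0.15 (SE) and an adjusted p of 0.0952. One Gars gene encodes both the cytosolic and the mitochondrial enzyme, so it has no separate mitochondrial counterpart, and the table holds 1 transcript row for it.

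Aars, the alanine enzyme, was at 18.2, 21.2 and 19.8 FPKM in ctrl and at 36.5, 36.4 and 28.5 in cKO hearts, with a log2 fold change of 0.74 ± 0.11 (SE) and an adjusted p of 0.0643. Aars2, known from infantile mitochondrial cardiomyopathy when mutated, was at 5.93, 4.66 and 5.33 FPKM against 5.89, 5.56 and 5.98, and its 95% interval ran from -0.13 to 0.36. Yars, the tyrosine enzyme, was at 15.0, 16.0 and 15.4 FPKM against 25.9, 27.8 and 20.6, with a log2 fold change of 0.64 ± 0.11 (SE) and an adjusted p of 0.0952. Yars and Aars thus had each cKO library above all controls. Yars2 was at 13.0, 12.8 and 14.0 FPKM against 12.1, 15.3 and 14.7, with cKO values on either side of the controls. Tars, the threonine enzyme, was at 25.2, 29.7 and 27.7 FPKM against 42.1, 47.6 and 36.0, with a log2 fold change of 0.58 ± 0.12 (SE) and an adjusted p of 0.117. Tars2 was at 14.3, 12.1 and 10.7 FPKM against 13.1, 14.3 and 13.4 when its transcript rows were summed.

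Vars, the valine enzyme, was at 22.2, 24.9 and 22.1 FPKM in ctrl and at 32.4, 34.8 and 37.2 in cKO hearts, a log2 fold change of 0.57 ± 0.09 (SE) and an adjusted p of 0.0643. Hars, the histidine enzyme, was at 24.0, 29.8 and 26.1 FPKM against 31.3, 31.3 and 32.2, a log2 fold change of 0.25 ± 0.09 (SE) and an adjusted p of 0.283. These were the only nominally higher members in which the library labelled cKO 3 was the highest of the cKO libraries. In 13 of the 15 that library was the lowest, in the remaining members the lowest was cKO 1. Vars2 was at 5.57, 4.46 and 5.09 FPKM against 4.95, 5.25 and 5.72, and Hars2 at 6.94, 6.34 and 7.19 against 6.73, 6.90 and 6.99. Phenylalanyl-tRNA synthetase is built from an alpha subunit, Farsa, and a beta subunit, Farsb. Farsb was at 30.8, 33.3 and 32.2 FPKM against 39.0, 45.3 and 34.9, a log2 fold change of 0.29 ± 0.11 (SE) and an adjusted p of 0.263. Farsa was at 14.5, 14.4 and 14.1 FPKM against 15.8, 16.3 and 15.9, a narrow gap with a log2 fold change of 0.15 and an adjusted p of 0.402, and the single-chain mitochondrial enzyme Fars2 was at 10.7, 8.59 and 8.98 against 10.1, 8.86 and 9.45.

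In the multisynthetase complex 5 of 8 enzyme genes were nominally higher, where 5.57% of all genes were. Eprs, the fused glutamate and proline enzyme, was at 42.5, 50.5 and 43.5 FPKM in ctrl and at 81.8, 91.8 and 58.8 in cKO hearts, with a log2 fold change of 0.73 ± 0.16 (SE) and an adjusted p of 0.137. Mitochondria use separate enzymes for these amino acids. Ears2, the glutamate enzyme, was at 6.98, 6.65 and 6.93 FPKM against 5.41, 5.78 and 6.26, lower in each cKO library with a log2 fold change of -0.21 ± 0.09 (SE) and an adjusted p of 0.342. Pars2, the proline enzyme, was at 3.58, 1.89 and 2.15 FPKM against 1.91, 2.05 and 2.55, with overlapping groups and the widest interval of the mitochondrial set, from -0.56 to 0.29. Lars, the leucine enzyme that also senses leucine for mTORC1, was at 20.5, 22.6 and 19.5 FPKM against 40.4, 46.6 and 27.6, a log2 fold change of 0.81 ± 0.17 (SE) and an adjusted p of 0.134. Lars2 was at 8.75, 9.41 and 9.45 FPKM against 8.47, 9.25 and 9.56, with overlapping groups.

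Iars, the isoleucine enzyme, was at 26.3, 30.6 and 28.2 FPKM against 51.3, 53.1 and 40.0, a log2 fold change of 0.73 ± 0.12 (SE) and an adjusted p of 0.0745. Iars2, the highest of the mitochondrial set, was at 16.8, 16.2 and 16.8 FPKM against 14.9, 17.1 and 18.3. Mars, the methionine enzyme that serves initiation as well as elongation, was at 16.6, 18.6 and 17.1 FPKM against 31.0, 30.3 and 25.4, a log2 fold change of 0.69 ± 0.10 (SE) and an adjusted p of 0.0603. Eprs, Lars, Iars and Mars were thus above the controls in each cKO library. Mars2 was at 2.30, 2.63 and 2.64 FPKM against 2.46, 2.84 and 3.04. Rars, the arginine enzyme, was at 35.1, 42.1 and 36.1 FPKM against 45.4, 52.5 and 41.7, a log2 fold change of 0.29 ± 0.11 (SE) and an adjusted p of 0.282 with the library labelled cKO 3 inside the range of the controls. Rars2 was at 16.9, 15.7 and 15.0 FPKM against 15.1, 18.3 and 14.3. The other 3 enzymes of the complex were Dars, Kars and Qars, for aspartate, lysine and glutamine, with log2 fold changes of 0.17, 0.16 and 0.067 and 95% intervals that together reached from -0.11 to 0.42. Aimp1, Aimp2 and Eef1e1, the scaffold proteins, had log2 fold changes of 0.053, 0.14 and 0.071. None passed, a count that does not set 3 genes apart from the background.

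The cytosolic genes were also counted by class and by an ATF4 list. In the whole cytosolic set 15 of 20 were nominally higher, where 5.57% of all genes tested were. Of the cytosolic class I genes 7 of 9 were nominally higher (median 0.64 on the log2 scale), and of the class II genes 7 of 10 (median 0.44), Eprs holding one enzyme of each. Among the 12 cytosolic genes listed as ATF4 targets, 11 were nominally higher, the exception being Wars, and their median was 0.74. Among the 8 others, 4 were, namely Farsb, Hars, Rars and Vars, with a median of 0.21. The lists were drawn up with these data known and are no independent evidence of a direction. No test was made between the lists.

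The promoters of the synthetase genes were searched for an ATF4-type composite motif, TGATGNAA on either strand (TTNCATCA on the other), from 250 bases before to 50 after the RefSeq start of each gene. It was present in 4.51% of 27025 gene symbols with such a window, in 5 of the 13 cytosolic members with a window, and in none of the 14 mitochondrial members with one. Windows were at hand for Aars, Dars, Eprs, Farsa, Farsb, Gars, Iars, Kars, Mars, Qars, Sars, Tars and Yars among the cytosolic genes. The matches were in Aars, Gars, Iars, Tars and Yars, all nominally higher, while Eprs, Farsb, Mars and Sars were nominally higher with no match in the window. Stretches that hold a match are printed 5′ to 3′ on the strand of the gene, from RefSeq on GRCm38.p6, with the motif in capitals. For Gars and Tars the stretch lies upstream of the start, and for the others it is a window of 30 bases around the match.
Gars (plus strand, chr6:55037881-55038000): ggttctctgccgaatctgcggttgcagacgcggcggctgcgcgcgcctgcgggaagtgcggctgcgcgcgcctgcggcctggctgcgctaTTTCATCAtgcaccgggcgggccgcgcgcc
Tars (minus strand, chr15:11399666-11399778): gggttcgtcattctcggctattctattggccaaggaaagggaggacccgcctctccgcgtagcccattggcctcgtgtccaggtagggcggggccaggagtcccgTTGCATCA
Aars (plus strand, chr8:111033840-111033869): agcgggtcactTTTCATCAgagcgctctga
Iars (plus strand, chr13:49682126-49682155): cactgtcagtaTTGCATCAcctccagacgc
Yars (plus strand, chr4:129189895-129189924): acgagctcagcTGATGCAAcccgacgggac

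Aars held 2 matches, of which 1 is printed. Counted from the start, the printed matches began at -30 in Gars, -15 in Tars, 10 in Aars, 8 in Iars and 4 in Yars. In Yars the motif reads in the direction of the gene and in the others on the opposite strand. The sequences TTGCATCA of Iars and Tars are identical, and Yars holds their reverse complement. A match is a string of letters, and binding was not measured here.

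Genes that share a start region with a synthetase were set beside it. On GENCODE M21, 9 members had a tested protein-coding gene on the opposite strand whose start lay within 1000 bases. Hars and Hars2 are such a pair, with log2 fold changes of 0.25 and 0.010. Yars at 0.64 stood beside S100pbp at -0.10. None of the 7 neighbours outside the synthetases reached an unadjusted p under 0.05. With 5.57% of all genes nominally higher and 9.43% nominally lower, so short a list does not stand apart by that count. Their log2 fold changes ran from -0.15 for Lyrm4, beside Fars2, to 0.036 for Orc3, beside Rars2.

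The balance between the compartments was then taken within each library. The 20 cytosolic genes summed to 547, 630 and 590 FPKM in ctrl 1 to 3 and to 923, 975 and 759 in cKO 1, cKO 2 and the library labelled cKO 3. The 16 mitochondrial genes summed to 132, 120 and 123 FPKM in ctrl and to 121, 130 and 130 in cKO hearts. The cytosolic sum was therefore 4.73 ± 0.565 times the mitochondrial sum in ctrl and 6.99 ± 0.985 times in cKO hearts (SD, n = 3 each), without overlap between the groups. An exact permutation test of 3 against 3 libraries cannot give a two-sided p below 0.1, and none is quoted. A ratio within a library does not depend on how the library was scaled.

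Of 16 ratios of a cytosolic to a mitochondrial enzyme, 12 were higher in every cKO library than in any ctrl library and the other 4 overlapped. Among single genes tested, 7.74% had every cKO library above every ctrl library, and no such share was taken over other ratios. Cars to Cars2 moved the most, from 1.72, 2.09 and 1.77 in ctrl to 3.81, 5.02 and 3.34 in cKO hearts. Sars to Sars2 went from 4.53, 5.56 and 4.84 to 12.7, 11.5 and 6.20, and Eprs to Ears2 from 6.09, 7.59 and 6.28 to 15.1, 15.9 and 9.40. For these pairs the mean ratio was at least 2.02 times that of ctrl. The overlapping pairs were Farsa to Fars2, Hars to Hars2, Wars to Wars2 and Eprs to Pars2. Hars to Hars2, whose genes lie head to head, was at 3.45, 4.69 and 3.62 in ctrl and at 4.65, 4.55 and 4.61 in cKO hearts. The ratios share the libraries and, for Eprs, a gene, so their count is a description. Except for Rars, the cytosolic genes of the 12 pairs already had each cKO library above all controls. The count of ratios is therefore no second result.

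**Figure D3:**
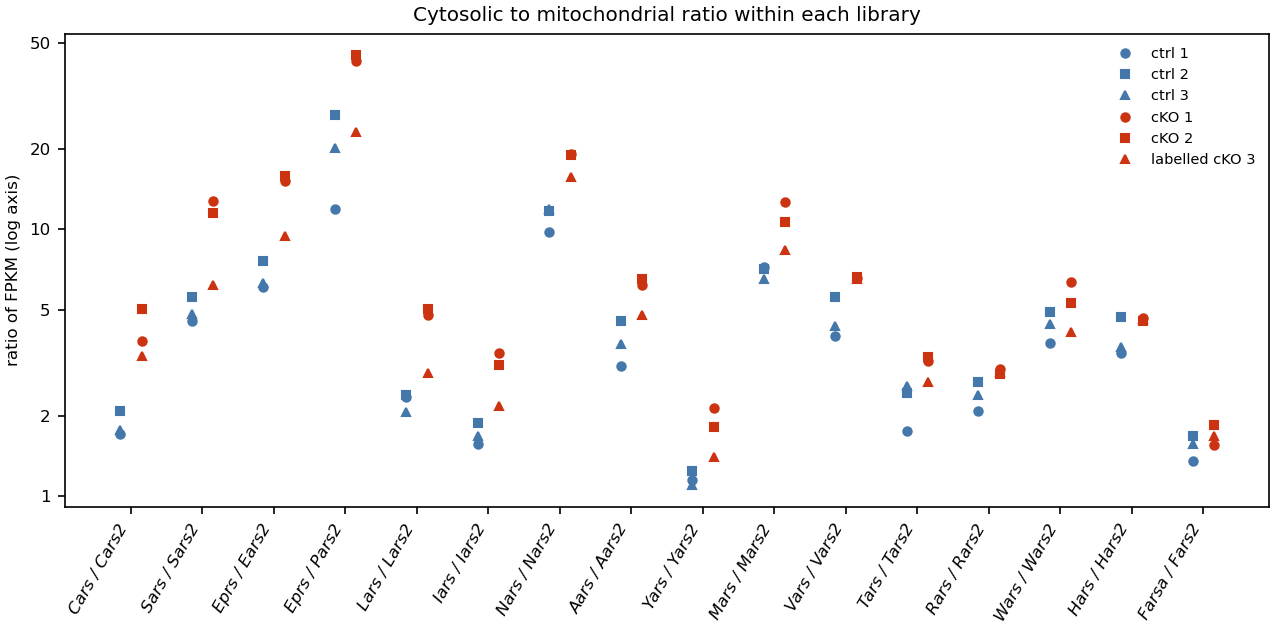
Ratio of the FPKM of a cytosolic synthetase gene to that of its mitochondrial counterpart in each library, on a log axis, ordered by the change of the mean ratio; blue points are ctrl and red points cKO libraries. In 12 of the 16 pairs all red points lie above all blue points, and Eprs to Pars2, Wars to Wars2, Hars to Hars2 and Farsa to Fars2 are the pairs that overlap.

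In ctrl hearts the cytosolic genes were the more abundant ones, with mean levels from 10.9 FPKM (Cars) to 59.1 (Gars) against 2.52 (Mars2) to 16.6 (Iars2). FPKM is a value per length, so these levels can be set side by side. The mean of 16 cytosolic genes lay above that of any mitochondrial gene. Iars2, Rars2, Yars2 and Tars2 were the 4 mitochondrial genes above the lowest cytosolic one. Between Gars at 53.0 to 62.5 FPKM and Kars at 45.9 to 53.7 the ctrl values overlapped, and the same held for Kars and Nars.

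For the mitochondrial enzymes the 95% intervals bound how large a change these libraries leave room for. All 16 intervals ended below a log2 fold change of 0.5, the highest upper bound being 0.39 for Tars2 and the lowest lower bound -0.56 for Pars2. The log2 fold changes of 12 nominally higher cytosolic genes exceeded every one of these upper bounds, the exceptions being Farsb, Hars and Rars. The bounds hold for log2(FPKM + 1), on which changes of weakly expressed genes come out too small. Mitochondrial genes are the weaker set, so the contrast may be somewhat overstated. For Mars2 the log2 fold change was 0.10 here and 0.13 with 0.1 added to FPKM in place of 1. Cars2 and Wars2 had log2 fold changes of -0.12 and -0.11. An interval that includes 0 does not show that a gene was level.

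Lysyl-tRNA synthetase, like the glycine enzyme, serves both compartments from 1 gene, by alternative splicing. Summed Kars was at 45.9, 52.7 and 53.7 FPKM in ctrl and at 52.6, 59.8 and 58.0 in cKO hearts. Kars-201 (ENSMUST00000034426), whose coding length of 1785 bases is that of the cytosolic form, was at 19.3, 22.3 and 22.2 FPKM against 28.5, 29.5 and 21.3. Kars-202 (ENSMUST00000093120), with the longer coding length of 1872 bases of the mitochondrial form, was at 23.2, 30.1 and 28.4 FPKM against 23.9, 30.2 and 32.9. Kars-203 (ENSMUST00000164470), of the same coding length, was at 3.33, 0.112 and 2.39 FPKM against 0.0817, 0.0148 and 3.27. None of the rows passed the test in limma (adjusted p of 0.535, 0.861 and 0.796), and the difference between the forms was not tested.

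Transcript rows gave a finer view of several members. The 36 genes have 93 rows in the table, 57 of which passed the filter. Wars-204 and Tars2-204 stayed under 1 FPKM in each ctrl library and passed only through the cKO libraries, so no test of them is given. Of the 32 other cytosolic rows 18 were nominally higher and 1 nominally lower, and of the 23 other mitochondrial rows none was higher and 1 was lower, where 10.2% of all 20370 rows tested were nominally changed in either direction. None of these other rows had an adjusted p under 0.05 in limma, which 0.0344% of all rows reached. FPKM of single transcripts of a gene are estimates that share reads, so they are less certain than the sum.

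The row that was nominally lower among the cytosolic ones belonged to Wars, the tryptophan enzyme, whose summed level was at 14.9, 17.1 and 16.7 FPKM in ctrl and at 20.8, 19.2 and 13.6 in cKO hearts. The main row Wars-201 (ENSMUST00000109848) was at 14.5, 16.4 and 15.8 FPKM in ctrl and at 11.4, 13.4 and 7.29 in cKO hearts, a log2 fold change of -0.53 ± 0.21 (SE) and an adjusted p of 0.474. Wars-204 (ENSMUST00000161154) was at 0.439, 0.724 and 0.925 FPKM in ctrl and at 8.84, 5.42 and 6.05 in cKO hearts. Each cKO library thus held much more of the second row and less of the first. Wars-204 made up between 2.94% and 5.53% of the Wars sum in ctrl and between 28.2% and 44.6% in cKO hearts. The remaining row, Wars-205 (ENSMUST00000161410), was listed at 0 in each ctrl library and at 0.494, 0.357 and 0.230 FPKM in cKO hearts, below the filter. In GENCODE M21, Wars-204 and Wars-205 start 977 and 976 bases downstream of Wars-201, at a different first exon. Wars-205 has the same coding stretch as Wars-201. The library labelled cKO 3, with Mrps5 at the control level, showed the same exchange of rows as the other cKO libraries.

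Tars2, the mitochondrial threonine enzyme, also held rows that differed in opposite directions between the groups, with a log2 fold change of the sum of 0.13 and a 95% interval from -0.12 to 0.39. Tars2-201 (ENSMUST00000029752) was at 8.61, 7.05 and 6.49 FPKM in ctrl and at 3.47, 3.90 and 4.13 in cKO hearts, a log2 fold change of -0.79 ± 0.13 (SE) and an adjusted p of 0.257. Tars2-204 (ENSMUST00000163530) was listed at 0 in each ctrl library and at 6.30, 5.98 and 6.29 FPKM in cKO hearts. No fold is given against a group listed at 0. Only 4 rows of the table were at 0 in every ctrl and at 1 FPKM or more in every cKO library, and another 4 showed the converse. The libraries labelled cKO 1 to 3 differed among themselves in this row by at most 0.314 FPKM.

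In GENCODE M21 the Tars2 rows share the first and last exon, and Tars2-204 lacks 2 internal exons of Tars2-201, which remove 243 bases, a whole number of 81 codons, from the coding stretch. These are exons 4 and 5 of Tars2-201, on the minus strand of chromosome 3 on GRCm38. They are printed because they alone set the rows apart.
Tars2 exon 4 (chr3:95751506-95751630): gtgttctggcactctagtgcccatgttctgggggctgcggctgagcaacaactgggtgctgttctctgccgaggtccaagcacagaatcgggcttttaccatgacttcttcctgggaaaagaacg
Tars2 exon 5 (chr3:95750867-95750984): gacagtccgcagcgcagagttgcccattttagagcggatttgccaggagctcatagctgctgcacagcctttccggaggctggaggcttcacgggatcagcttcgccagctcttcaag

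**Figure D4:**
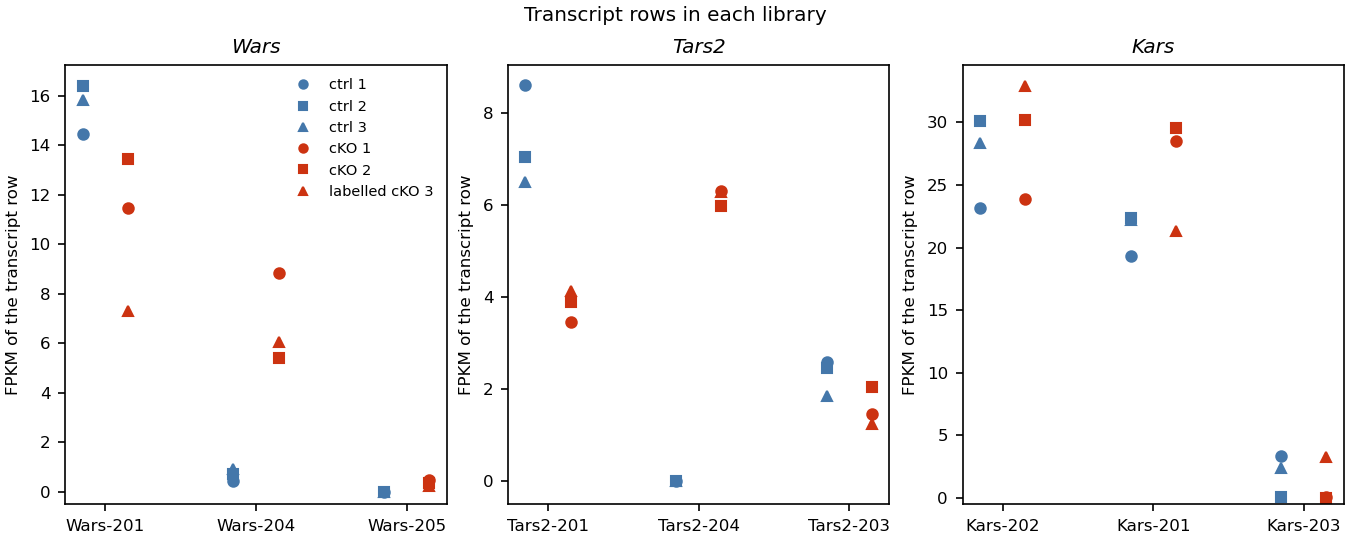
FPKM of the main transcript rows of Wars, Tars2 and Kars in each library; blue points are ctrl and red points cKO libraries. Wars-204 and Tars2-204 are near or at 0 in ctrl and between 5.42 and 8.84 FPKM in cKO hearts while Wars-201 and Tars2-201 are lower there, and the Kars rows overlap between the groups.

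Other members with more than 1 main row moved as their sum did or could not be resolved. Sars-201 and Sars-202 were both nominally higher, with log2 fold changes of 0.90 and 1.14. Cars-202 carried most of the Cars sum and had a log2 fold change of 0.90. The rows of Farsb, Farsa and Fars2 varied within a group, with Farsb-202 between 0.282 and 9.28 FPKM in ctrl and between 0.635 and 9.63 in cKO hearts. In Mars, the 3′ end overlaps that of Ddit3, the gene of the stress factor CHOP on the opposite strand, by 68 bases, and Ddit3 itself went from 8.82, 8.20 and 8.38 FPKM to 44.8, 35.7 and 15.5. The libraries were strand-specific, but whether strand was used in counting is not stated. The full-length row Mars-201 was at 14.4, 15.2 and 14.5 FPKM against 23.5, 23.2 and 21.0, a log2 fold change of 0.59.

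Gene groups around the synthetases were taken from lists. The ATF4 and stress target list, which holds no synthetase, had 19 tested genes. Chac1 and Nupr1 stayed under 1 FPKM in each ctrl library and passed the filter only through the cKO libraries, where they were high, and were not counted. The 17 others were nominally higher, where 5.57% of all genes were, and their median was 1.28 on the log2 scale. Of these 17, 5 had an adjusted p under 0.05, which 0.0528% of all genes reached as higher. The examples with the smallest p were the pseudokinase Trib3 at 2.56, the amino acid transporter subunits Slc7a5 at 1.41 and Slc3a2 at 1.07, and the folate enzyme Mthfd2 at 1.73. Slc7a11, the cystine transporter, did not pass the filter and was at 0.0485, 0.0940 and 0.0999 FPKM in ctrl and at 2.27, 2.60 and 0.835 in cKO hearts. None of the 10 other aminoacylation genes passed, with log2 fold changes from -0.18 to 0.14. They include Tarsl2, a threonine enzyme in the cytosol, at -0.010, and Qrsl1, Gatb and Gatc, which build the mitochondrial glutaminyl-tRNA. Of 13 genes that mature mitochondrial tRNAs and were found, Nsun3, which methylates the mitochondrial methionine tRNA, was nominally higher at 0.32 (adjusted p = 0.285) and 3110001I22Rik was nominally lower at -0.28 (adjusted p = 0.313). The call of Nsun3 was lost in 6 of 15 alternatives, among them scaling to TPM (unadjusted p = 0.103 by limma) and the most abundant row (0.0714), and that of 3110001I22Rik in 7 of 15, among them the replicate block (0.0524). Of 6 cytosolic elongation factors, Eef2 was nominally higher at 0.40 and Eef1a2 nominally lower at -0.87. Counts of 1 gene in each direction do not set lists this short apart from the background of 5.57% higher and 9.43% lower. Eef2 moves the ribosome along the mRNA, and Eef1a2 delivers aminoacyl-tRNA to it.

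The size of the difference varied among the cKO libraries. The mean deviation of the 20 cytosolic genes from their ctrl mean, in log2(FPKM + 1), was 0.59 in cKO 1, 0.66 in cKO 2 and 0.34 in the library labelled cKO 3, whereas the ctrl libraries lay between -0.085 and 0.089. The mitochondrial genes lay at -0.037, 0.018 and 0.049 in cKO hearts, inside the ctrl range of -0.069 to 0.080. The ATF4 and stress target list was at 1.79, 1.66 and 0.88 in the same libraries. These are means over all 19 tested genes and include Chac1 and Nupr1, which passed the filter only through the cKO libraries. Medians over the same genes were 1.64, 1.63 and 0.86. By these means and medians, the library least changed in the list was also the least changed in the cytosolic synthetases. Mrps5 was at the control level in that library. In cKO 2, where erythroid markers were lowest, all 20 cytosolic genes were above every ctrl library, and in cKO 1 and the library labelled cKO 3 17 were. The part of Mrps5 level and of tissue makeup in these values was not tested.

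**Figure D5:**
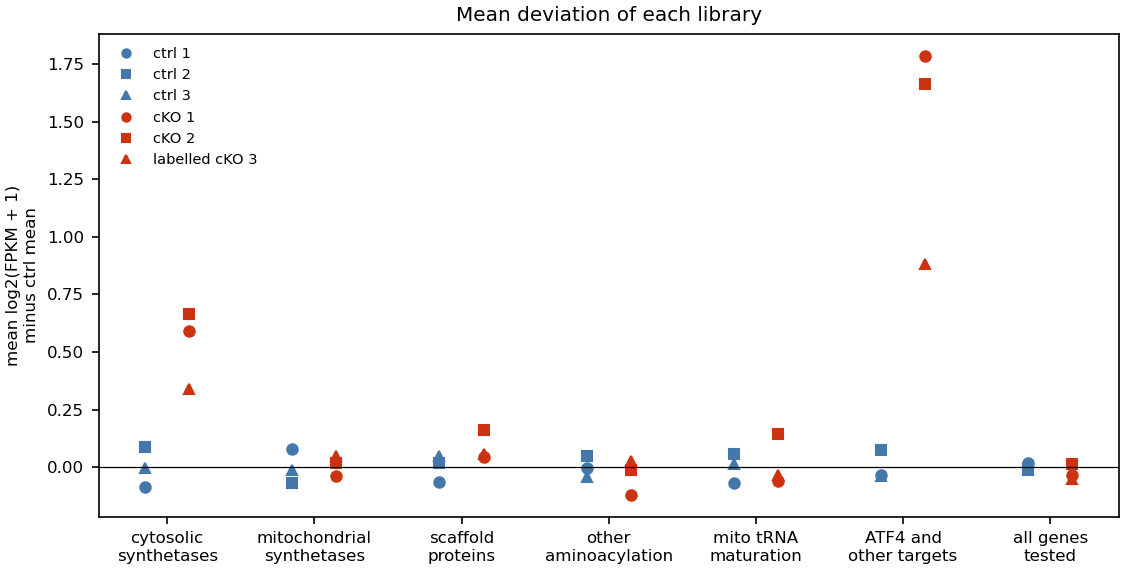
Mean deviation of each gene list from its ctrl mean in each library, in log2(FPKM + 1) units; blue points are ctrl and red points cKO libraries, and the marker shape gives the replicate number. Cytosolic synthetases lie at 0.34 to 0.66 and the ATF4 and stress target list at 0.88 to 1.79 in cKO hearts, while all other points lie between -0.12 and 0.16. The ATF4 and stress target list is drawn over 19 tested genes, including Chac1 and Nupr1, which passed the filter only through the cKO libraries.

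Leaving out the library labelled cKO 3 raised the number of cytosolic genes with an adjusted p under 0.05 from 1 to 12, with the nominal count at 15. In that setting 842 of all 13166 genes tested were nominally higher. Over all genes the number with an adjusted p under 0.05, 11 in the main fit, also shifted widely when 1 replicate was left out. The rise is thus not shown to be particular to the members. Without cKO 1 or without any one ctrl library no cytosolic gene kept an adjusted p under 0.05 in limma, and between 12 and 15 were nominally higher. Without cKO 2 the counts were 1 and 12. Sars had a log2 fold change of 1.29 and Nars of 0.94 without the library labelled cKO 3. Wars then became nominally higher at 0.28, while Hars no longer was at 0.23. With the summed erythroid level as a covariate 14 cytosolic genes were nominally higher and none had an adjusted p under 0.05.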

How the data were processed

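Hearts (6 libraries, 3 ctrl and 3 cKO) were profiled by strand-specific sequencing of rRNA-depleted RNA. The authors deposited 1 table of FPKM, normalized for transcript length and library size, with 60776 transcript rows. The submitters' processing notes name Bowtie2 2.2.8, HISAT2, StringTie 1.3.1, Cuffdiff 2.1.1 and the build mm9, without roles. The annotation release is not given in the sources used here. Ensembl gene versions were removed, 27 gene symbols turned into dates were restored, and rows were summed per gene. Values were tested as log2(FPKM + 1) with limma 3.58.1 in R 4.3.3 (lmFit, eBayes with trend, two-sided), after a filter of 1 FPKM in 3 of 6 libraries, with Benjamini-Hochberg adjustment over all genes or all transcript rows. The procedure was tested on simulated data. Per the labels the replicates are biological, and the paper gives several hearts per replicate. Transcript structures and names come from GENCODE M21, and promoters from RefSeq on GRCm38.p6, matched by symbol for 13 cytosolic and 14 mitochondrial members. The members and lists were chosen with earlier results of these data known. All members are named; full values are given for those with an unadjusted p under 0.05 and their counterparts, and for listed genes with the smallest p. The 16 alternatives covered scaling, pseudocount, filter, transcript row, variance trend, erythroid covariate, replicate block and leaving out each replicate. Some items are not reported here.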

Additional observations from a re-analysis of the deposited data

How the results depend on the processing

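The count of nominally higher cytosolic genes stayed between 12 and 16 over all 16 alternatives, and the median log2 fold change of all 20 cytosolic genes between 0.54 and 0.72. Of 240 values of the 15 nominally higher genes, 223 kept their sign and an unadjusted p under 0.05, 17 lost the p and none changed sign. The losses were in Farsb, Hars and Rars, and the other 12 genes lost none. Adjusted calls were less stable. The genes with an adjusted p under 0.05 (11, 1 of them cytosolic) numbered 4 and 0 under the replicate block, 6 and 0 without a filter, 87 and 2 scaled to TPM, 4 and 0 on the most abundant row, 6 and 0 without the variance trend, and the cytosolic count was 0 with the erythroid covariate. Leaving out 1 replicate gave 3 to 261 genes and 0 to 12 cytosolic ones, and 1179 to 2173 genes at an unadjusted p under 0.05, 1314 at a mean of at least 5 FPKM. One mitochondrial gene had an unadjusted p under 0.05 without a filter and with erythroid and mitochondrially encoded genes left out of the total (Ears2 in both), 1 on the most abundant row (Tars2), and 0 to 1 when a replicate was left out. Scaling to TPM moved the median of all genes to -0.11 and that of the mitochondrial genes to -0.069. The causes were not tested.

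The labels do not say whether equal replicate numbers mark a shared litter or batch. The deviations of libraries with the same number correlated at 0.22, 0.11 and 0.09, and each library correlated best with its own number. The correlations were low, and pairing was neither taken as given nor excluded. With a replicate block, 2221 genes were nominally changed, and 15 cytosolic and 0 mitochondrial members kept the calls above.

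Members without a call changed sign in some settings. Scaled to TPM the log2 fold change was -0.015 for Qars, -0.070 for Fars2, -0.068 for Hars2, -0.073 for Iars2, -0.080 for Rars2, -0.0065 for Vars2 and -0.012 for Yars2. With erythroid and mitochondrially encoded genes left out of the total it was -0.022 for Fars2, -0.021 for Hars2, -0.024 for Iars2 and -0.031 for Rars2. It was 0.0053 for Lars2 under median-ratio scaling and, on the most abundant row, -0.53 for Wars, -0.54 for Fars2, 0.012 for Lars2 and -0.79 for Tars2. With the erythroid covariate it was -0.041 for Fars2 and 0.0027 for Lars2. Leaving out 1 replicate gave -0.0054 to 0.28 for Wars, -0.050 to 0.029 for Lars2, -0.048 to 0.096 for Fars2, -0.035 to 0.044 for Hars2, -0.053 to 0.086 for Iars2, -0.097 to 0.070 for Rars2, -0.0065 to 0.13 for Vars2 and -0.27 to 0.065 for Pars2. With 3 libraries a group and no read numbers, differences of this size could not be resolved.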
